A study of Drosophila melanogaster with 48 samples.

Results

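Poly(A)+ RNA of Drosophila melanogaster S2 cells given dsRNA against Rrp6 was compared directly with that of S2 cells given dsRNA against Csl4. Both proteins belong to the RNA exosome, and the comparison asks which transcripts respond more to the nuclear exonuclease than to the core cap subunit. S2 cells are a cultured embryonic line that resembles blood cells. The comparison takes 4 of the 48 samples of the series, 2 libraries labelled Rrp6 and 2 labelled Csl4, and every gene in the deposited tables. Of 15065 gene IDs, 12462 had a read in these 4 libraries and 8294 passed the filter on low counts and were tested. Cells of each group were nucleofected with 2 ug of dsRNA and collected 5 days later. Control cells received dsRNA against GFP, a sequence with no target in them, and supplied 2 further libraries. The same 3 groups were available from S3 cells, another Drosophila line, with 2 libraries each for Rrp6 and Csl4 and 3 for GFP. All groups had received dsRNA, so none is an untreated culture, and the RNA comes from whole cultures in which the knockdown may differ from cell to cell. The sample titles call the libraries of a group biological replicates, without saying whether each came from its own culture and transfection.

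The exosome degrades and trims RNA from the 3′ end. A ring of subunits is topped by a cap formed by Csl4, Rrp4 and Rrp40, and the exonuclease Dis3 sits at the other end of the channel. Rrp6, a second exonuclease, joins the complex in the nucleus, where it is known for trimming ribosomal RNA, small nuclear RNAs (snRNAs, components of the spliceosome) and small nucleolar RNAs (snoRNAs, guides of RNA modification). Mature snRNAs and snoRNAs lack the poly(A) tail of messenger RNA, and tailed forms of such RNAs are known substrates of the nuclear exosome.

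The 2 Rrp6 libraries held 5737608 and 777607 reads on genes, the Csl4 libraries 8378647 and 532934, and the GFP libraries 8248223 and 939776. Each group thus has a deeper and a shallower library. Levels below are RPM (reads per 1000000 on genes), scaled together over the 6 libraries with TMM factors, and differences are log2 ratios of Rrp6 to Csl4 dsRNA with their standard error, from edgeR's quasi-likelihood test with depth class (deeper or shallower) as a block. An adjusted p (Benjamini-Hochberg over all genes tested) of at most 0.05 is called past the threshold, and "higher" or "lower" without a further word means with Rrp6 dsRNA relative to Csl4 dsRNA. All 11 markers of blood cells had reads in at least 1 of the 6 libraries, while Sr-CI, He and NimC1 had 0 in the shallower Csl4 and the shallower GFP library. The summed level of the 11 was 3068 to 3470 RPM with Rrp6 and 2866 to 3399 with Csl4 dsRNA. Of the 10 tested, Pxn and Pvr were past the threshold, both lower; neither kept the call without the deeper Rrp6, the deeper Csl4 or the shallower Csl4 library (adjusted p from 0.0688 to 0.404), nor did Pvr without the shallower Rrp6 library (0.067). Reads were assigned to genes by the submitters, and no source states whether strand was used. In the Release 6 annotation, the spans of 48 of the 86 genes chosen by rule, introns included, overlap another gene. Where the counted parts overlap too, reads of the partners may not be told apart.

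Reads on the targeted genes were not lower in both libraries of their own dsRNA than under GFP dsRNA. Rrp6 stood at 368 and 1289 RPM in the deeper and shallower Rrp6 libraries, at 61 and 53.1 in the Csl4 libraries and at 66.5 and 58.2 in the GFP libraries. The libraries labelled Rrp6 were therefore the highest for Rrp6 reads, by 3.51 ± 0.34 over Csl4 (edgeR adjusted p = 5.5e-07). Csl4 stood at 220 and 45 in its own libraries, at 60.5 and 65.6 in the Rrp6 libraries and at 80.6 and 94.3 in the GFP libraries. The deeper Csl4 library was the highest of the 6 for Csl4 and the shallower one the lowest. The difference of −1.17 ± 0.36 (adjusted p = 0.0343) became 0.60 (adjusted p = 0.473) without that library and −0.56 (adjusted p = 0.668) without the deeper Rrp6 library. Rrp40, the RNA-binding cap subunit that was not targeted in these libraries, stood at 59.7 and 80.3 with Rrp6, 93.7 and 110 with Csl4 and 112 and 147 with GFP dsRNA, a difference of −0.58 ± 0.23 (adjusted p = 0.0984). The labels state that protein loss was checked by Western blot, and no blot values are used here. The groups below are thus the libraries labelled Rrp6 and Csl4, and every direction is drawn between libraries so labelled.

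In S2 poly(A) RNA, 601 genes were higher and 443 lower with Rrp6 than with Csl4 dsRNA, 7.25% and 5.34% of the 8294 tested. The higher genes differed by a median of 2.43-fold, 425 of them by over 2-fold and 115 by over 4-fold. The lower genes differed by a median of 1.94-fold, with 186 past 2-fold and 8 past 4-fold. Across all genes tested the median log2 difference was −0.02. The calls rest on the depth block: without it, edgeR called 0 genes in either direction, with 519 genes at an unadjusted p under 0.05 against 2388 with it, and no named gene kept its call. DESeq2 with the block called 379 higher and 229 lower. Without the deeper Rrp6 library 134 were higher and 46 lower, without the deeper Csl4 library 187 and 113, and without the shallower Csl4 library 289 and 222. In all 6 fits that left out 1 library, 68 higher and 27 lower genes were called.

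**Figure D1:**
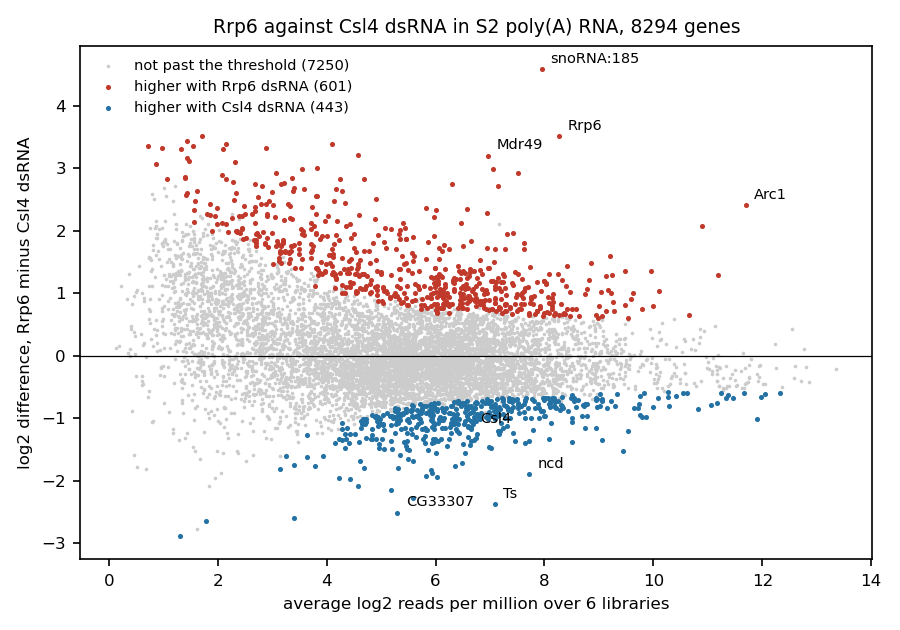
Log2 difference between Rrp6 and Csl4 dsRNA (vertical axis) against average log2 RPM over 6 libraries (horizontal axis) for each of 8294 tested genes, 1 point a gene. Red points (601) were higher and blue points (443) lower with Rrp6 dsRNA; the highest point is snoRNA:185 and most strongly changed genes are on the red side.

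Small nuclear and nucleolar RNAs held the gene with the highest difference of all. snoRNA:185, a small nucleolar RNA, stood at 771 and 585 RPM in the Rrp6 libraries, at 47.5 and 12.3 in the Csl4 libraries and at 45.8 and 1.16 in the GFP libraries. The groups did not overlap, and the difference was 4.59 ± 0.41 (edgeR adjusted p = 1.9e-07). snoRNA:U3:9B, a copy of the U3 RNA that takes part in cutting the ribosomal RNA precursor, stood at 336 and 315 with Rrp6, at 62.2 and 22.5 with Csl4 and at 37.9 and 3.49 with GFP dsRNA. It was higher by 2.98 ± 0.36 (adjusted p = 8.7e-06). U3 has near-identical copies, so its value is uncertain. In the main fit these 2 were the only members past the threshold among 7 tested of 219 snoRNA and scaRNA genes, beside 7.25% higher of all genes. With at least 10 reads required in every Rrp6 and Csl4 library the list had 1 call. The other 5 ranged from −0.38 for snoRNA:Or-aca4 to 0.82 for snoRNA:Psi28S-1153.

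Among snRNAs, U11 and U12, which belong to the minor spliceosome that removes a rare class of introns, were higher. snRNA:U12 stood at 362 and 559 RPM with Rrp6, 110 and 155 with Csl4 and 12.4 and 6.99 with GFP dsRNA. The 3 groups were in that order without overlap, and U12 was higher by 1.80 ± 0.24 (adjusted p = 3.6e-05). snRNA:U11 stood at 127 and 142 with Rrp6, 31.9 and 51.1 with Csl4 and 5.38 and 3.49 with GFP dsRNA, a difference of 1.82 ± 0.26 (adjusted p = 6e-05). snRNA:U6atac, also of the minor spliceosome, stood at 59.2 and 103 with Rrp6 and 41.6 and 40.9 with Csl4 dsRNA (0.81 ± 0.28, adjusted p = 0.0589), against 3.16 and 1.16 with GFP. All 4 snRNA and snoRNA calls held in each of the 6 fits without 1 library. snRNA:U2:34ABa, of the major spliceosome, stood at 220 and 297 with Rrp6 and 235 and 166 with Csl4, where the groups overlapped (0.36 ± 0.26, adjusted p = 0.381). snRNA:7SKa, a regulator of transcription elongation, gave −0.27 ± 0.28 (adjusted p = 0.563). U5:34A and U1:82Eb passed the filter at low levels, with 5.22 and 9.37 RPM and 9.18 and 6.69 under Rrp6 dsRNA. With Csl4 dsRNA they stood at 1.67 and 2.04, and at 4.01 and 2.04. A gene can pass the filter through the Rrp6 libraries alone, so highest values under Rrp6 dsRNA are partly built in for such genes. With RLE scaling, with at least 10 reads in every Rrp6 and Csl4 library, and in those 4 libraries alone, 3 snRNA genes were higher. Of 29 snRNA genes 8 were tested in the main fit and 2 were past the threshold, U11 and U12, beside 7.25% higher of all genes. The host genes that overlap them in the Release 6 annotation moved too: Fie, which overlaps U11, by 1.96 ± 0.23 (adjusted p = 8.1e-06), and Baldspot, which overlaps U12, by 1.29 ± 0.30 (adjusted p = 0.00668, but 0.17 without the shallower Rrp6 and 0.127 without the deeper Csl4 library). Reads of the small RNA and of its host cannot be told apart without strand and position.

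**Figure D2:**
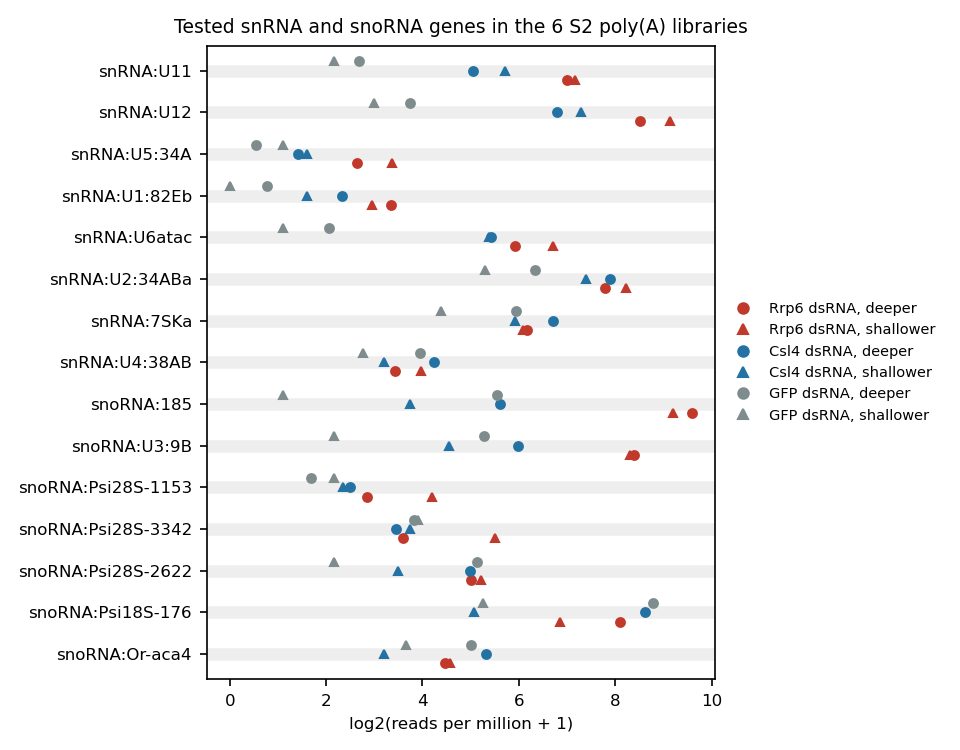
Level of each tested snRNA and snoRNA gene (rows) in the 6 S2 poly(A) libraries on a log2(RPM + 1) axis, 1 symbol a library, with circles for deeper and triangles for shallower libraries. For U11 and U12 the red Rrp6 symbols lie above the blue Csl4 symbols and these above the grey GFP symbols, while for snoRNA:185 the deeper Csl4 and GFP symbols lie together at 47.5 and 45.8 RPM.

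The 12 genes chosen for the largest positive differences ranged from 2.75 to 4.59. All 12 were past the DESeq2 threshold too, but on the same reads and with the same block, so this is no separate evidence. Besides the 2 snoRNAs they include genes of drug and toxin handling. Mdr49, an ATP-driven export pump, stood at 356 and 280 RPM with Rrp6, 42.1 and 18.4 with Csl4 and 10.8 and 21 with GFP dsRNA, a difference of 3.20 ± 0.30 (edgeR adjusted p = 2.1e-07). Cyp6d2, a cytochrome P450, stood at 224 and 169 with Rrp6, 32.9 and 24.5 with Csl4 and 4.09 and 4.66 with GFP dsRNA (2.75 ± 0.25, adjusted p = 2.1e-07). Its ratio of Rrp6 to Csl4 was 6.8 in the deeper pair and 6.88 in the shallower pair. CG8620 stood at 400 and 574 with Rrp6, 68.9 and 42.9 with Csl4 and 7.83 and 15.1 with GFP dsRNA (2.92 ± 0.27, adjusted p = 2.1e-07). CG12766 and CG3397 were higher by 2.83 ± 0.37 and 2.82 ± 0.38 (adjusted p = 3.3e-05 and 3.8e-05). Calls of these 7 genes held without any 1 library.

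The other 5 lost the call without 1 library, with positive differences kept. CG40470, at 48.3 and 33.5 with Rrp6 and 5.23 and 0 with Csl4 dsRNA, had an adjusted p of 0.0515 without the deeper Rrp6 library. Without the same library, the adjusted p was 0.0866 for CG15044, 0.109 for Obp56a, an odorant-binding protein gene, and 0.1 for CG13659. CG40470 and CG15044 were low outside the Rrp6 libraries, and a gene can pass the filter on low counts through those libraries alone. The ribosomal RNA gene 18SrRNA:CR41548 followed the depth class more than the dsRNA: it stood at 3.17 and 214 with Rrp6, 0.334 and 22.5 with Csl4 and 0.234 and 8.15 with GFP dsRNA. Its Rrp6 to Csl4 ratio was 9.48 in the deeper and 9.53 in the shallower pair (3.21 ± 0.42, adjusted p = 2.8e-05), and its adjusted p was 0.0745 without the shallower Rrp6 library. Ribosomal RNA is made from many near-identical repeats, so reads given to 1 copy are uncertain.

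**Figure D3:**
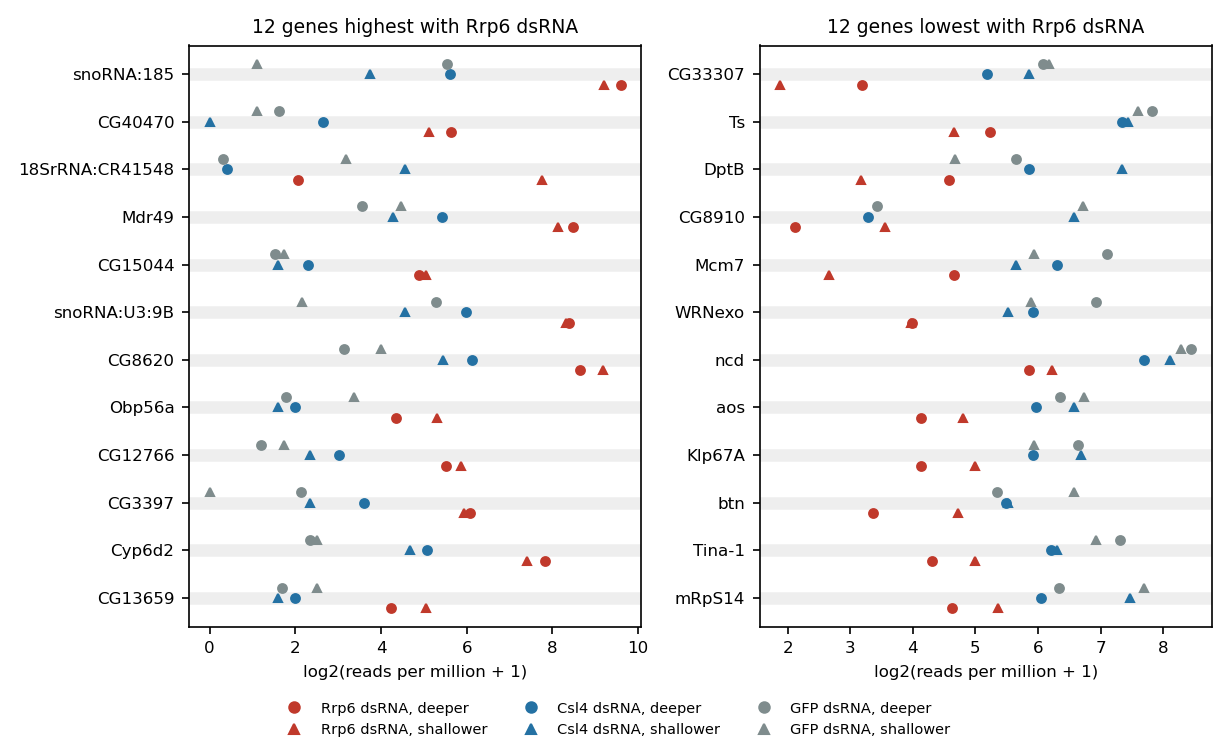
Levels of the 12 genes chosen by rule for the largest positive (left) and the 12 for the largest negative difference (right) in each S2 poly(A) library. The axis is log2(RPM + 1), with colour for the dsRNA and circles and triangles for deeper and shallower libraries. The genes were picked for these differences, so a gap between Rrp6 and Csl4 symbols is built in; the groups overlap for 1 gene in each panel, 18SrRNA:CR41548 and CG8910, and over all tested genes they were apart upwards for 19.2% and downwards for 19.4%.

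Detoxification lists held further calls. Of 47 tested genes named as cytochrome P450, enzymes that oxidise foreign and endogenous small molecules, 6 were higher and 1 lower, beside 7.25% and 5.34% of all genes. The lower one, Cyp1, is a cyclophilin by function and carries the name only by its spelling (−0.98 ± 0.19, adjusted p = 0.00179). Cyp12c1 was higher by 1.51 ± 0.26 (adjusted p = 5.4e-04), and both it and Cyp1 missed the threshold without the deeper Rrp6 library (adjusted p = 0.0515 and 0.0885). Cyp28d2 was higher by 2.55 ± 0.47 (adjusted p = 9e-04), with 0 reads in the shallower Csl4 library, and its adjusted p was 0.0963 and 0.0915 without the deeper Rrp6 and the deeper Csl4 library. Of 30 tested glutathione transferases, which couple toxins to glutathione, and multidrug pumps, 7 were higher and 0 lower. GstD5 was higher by 1.37 ± 0.24 (adjusted p = 5.5e-04) and kept the call without any 1 library, and GstS1 was higher by 1.54 ± 0.27 (adjusted p = 5.2e-04), but not past the threshold without the deeper Csl4 library (0.0751). The transferase and pump list had 4 calls without the deeper Rrp6 library and 3 without either Csl4 library. The count of higher P450 genes was 1 without the deeper Rrp6 library, 2 without the deeper Csl4 library, 4 without the shallower Csl4 library and 1 among genes with at least 10 reads in every Rrp6 and Csl4 library.

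Some genes of neuronal and cellular activation were among the larger differences. Arc1, a capsid-forming gene that is induced by neuronal activity, stood at 8379 and 7492 RPM with Rrp6, 1423 and 1590 with Csl4 and 421 and 696 with GFP dsRNA. The groups were ordered without overlap, Arc1 was higher by 2.41 ± 0.21 (adjusted p = 1.9e-07), and the call held without any 1 library. Of 6 tested immediate early genes 3 were higher, beside 7.25% of all genes: Arc1 and the transcription factor genes Hr38 (2.22 ± 0.54, adjusted p = 0.00869) and sr (1.38 ± 0.34, adjusted p = 0.00946). DESeq2 called 1 of the list, and so did the fit requiring 10 reads in every Rrp6 and Csl4 library. Without the deeper Rrp6 library sr had an adjusted p of 0.164 and Hr38 was not tested, and without the deeper Csl4 library they had 0.265 and 0.53. Arc2, a neighbour and relative of Arc1, stood at 566 and 736 with Rrp6 and 620 and 517 with Csl4 dsRNA, where the groups overlapped (0.16 ± 0.21, adjusted p = 0.649). kay and Jra, the Drosophila Fos and Jun, gave −0.05 and −0.11 (adjusted p = 0.892 and 0.793).

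Stress and cytokine genes moved in smaller steps. Of 9 tested heat shock and chaperone genes 4 were higher and 0 lower. The small heat shock gene Hsp23 was higher by 1.21 ± 0.21 (adjusted p = 6.6e-04), Hsp26 by 1.17 ± 0.22 (0.0012) and Hsp68 by 1.20 ± 0.23 (0.00126). Their adjusted p was 0.0672, 0.0512 and 0.078 without the deeper Rrp6 library, and Hsp26 and Hsp68 had 0.095 and 0.0512 without the shallower Csl4 library, so that the list had 0 and 1 calls. In the JAK-STAT pathway, the ligand genes upd2 (1.66 ± 0.36, adjusted p = 0.00352) and upd3 (1.01 ± 0.29, adjusted p = 0.0245) were higher. The receptor gene dome, the kinase gene hop and the transcription factor gene Stat92E gave −0.02, 0.09 and −0.11, and the feedback target Socs36E gave 0.58 ± 0.19 (adjusted p = 0.0533). upd2 and upd3 had adjusted p of 0.406 and 0.45 without the deeper Rrp6 library and 0.0819 and 0.675 without the deeper Csl4 library. In the JNK list, 3 of 12 were higher and 1 lower, beside 7.25% and 5.34% of all genes and with 1 higher without either deeper library and 0 without either shallower one. The pathway's phosphatase gene puc was higher by 0.99 ± 0.22 (adjusted p = 0.00529) and its ligand gene egr lower (−0.83 ± 0.24, adjusted p = 0.0266). puc had adjusted p of 0.214 and 0.101 without the shallower Rrp6 and the shallower Csl4 library, and egr had 0.494 and 0.41 without the deeper Rrp6 and the deeper Csl4 library.

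p53, the damage-response transcription factor gene, stood at 297 and 701 RPM with Rrp6, 120 and 335 with Csl4 and 54.5 and 87.3 with GFP dsRNA. Levels overlapped between Rrp6 and Csl4 across depth classes, while the ratio was 2.47 in the deeper and 2.09 in the shallower pair (1.19 ± 0.22, adjusted p = 9.5e-04, and 0.085 without the deeper Csl4 library). The cell death gene hid was higher by 1.31 ± 0.32 (adjusted p = 0.00869), with 0.054, 0.0957 and 0.0667 without the deeper Rrp6, the deeper Csl4 and the shallower Csl4 library. Of 18 tested p53, death and repair genes 4 were higher and 0 lower (7.25% and 5.34% of all genes), and 1 was higher without each of those 3 libraries. Of 10 genes of the unfolded protein and integrated stress response, 0 were past the threshold in edgeR or DESeq2 and 1 had an unadjusted p under 0.05, with a median of 0.19. Of 7 ecdysone response genes 2 were higher, the receptor gene EcR (0.82 ± 0.25) and Eip75B (0.83 ± 0.21), and without each Rrp6 or Csl4 library in turn the list had 0 calls. Of 11 glycolysis genes 2 were higher, among them Hex-A, the first enzyme of the pathway (1.12 ± 0.21, adjusted p = 0.00125, and 0.0848 and 0.0681 without the deeper Rrp6 and the shallower Csl4 library).

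RNA decay genes were mostly within the spread. Of 10 exosome subunit genes, 8 were not targeted in either group and none of these was past the threshold in edgeR, although all 8 had negative differences, from −0.26 for Mtr3 to −0.77 for Rrp46, both ring subunits. Of the 10 genes 6 had an unadjusted p under 0.05, and the list had 2 lower calls, against 1, in the 4 libraries alone, with no filter and without either GFP library. In S3, Rrp40 (−1.22, adjusted p = 0.0268) and Rrp46 (−1.44, adjusted p = 0.0374) were lower. Dis3, the catalytic subunit at the base, gave −0.62 ± 0.24 (adjusted p = 0.0845). Of 9 exosome helicase and adaptor genes, 0 were past the threshold in edgeR or DESeq2, 0 had an unadjusted p under 0.05 and the median was −0.03. The list of decapping, deadenylation and 5′-3′ decay lacks Dcp1, Dcp2, Ge-1 and Patr-1, which found no match by name. Of its 13 genes 3 were higher: Not1, the scaffold of the deadenylase complex (0.86 ± 0.20, adjusted p = 0.00578), its nuclease subunit Pop2 (0.72 ± 0.22, 0.033) and the decapping enhancer Edc3 (1.01 ± 0.25, 0.00956). That count was 0 without the shallower Rrp6 or the shallower Csl4 library and 1 without either deeper one. Gadd45, a stress-inducible gene kept low by nonsense-mediated decay, stood at 176 and 349 with Rrp6, 89.9 and 69.5 with Csl4 and 59.8 and 80.3 with GFP dsRNA (1.50 ± 0.26, adjusted p = 5.4e-04). It was the only one of 6 nonsense-mediated decay genes past the threshold and kept the call without any 1 library. Of 54 tested long noncoding and antisense RNA genes, 6 were higher and 2 lower, beside 7.25% and 5.34% of all genes, and the higher count was 2, 1 and 2 without the deeper Rrp6, the deeper Csl4 and the shallower Csl4 library. lncRNA:CR42862 stood at 5362 and 2688 with Rrp6, 2348 and 1014 with Csl4 and 1532 and 884 with GFP dsRNA (1.29 ± 0.19, adjusted p = 7.9e-05), a call that held without any 1 library.

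Among genes of cell division all calls were on the lower side. Of 25 tested genes of DNA replication and nucleotide supply, 14 were lower and 0 higher, beside 5.34% lower of all genes, and the median was −0.97. Ts, thymidylate synthase, stood at 36.6 and 24.1 RPM with Rrp6, 162 and 172 with Csl4 and 225 and 192 with GFP dsRNA. The Rrp6 libraries were far below all others, and Ts was lower by a log2 difference of −2.37 ± 0.25 (adjusted p = 1.8e-06). Mcm7, of the replicative helicase, stood at 24.2 and 5.35 with Rrp6, 77.8 and 49.1 with Csl4 and 136 and 60.5 with GFP dsRNA (−1.94 ± 0.29, adjusted p = 1.5e-04). Both calls held without any 1 library, and Mcm6, another helicase subunit (−1.46 ± 0.24, adjusted p = 3.9e-04), had 0.1 without the deeper Rrp6 library. Of 30 genes of mitosis and cytokinesis, 15 were lower and 0 higher, with a median of −0.95. ncd, a kinesin of the mitotic and meiotic spindle, stood at 56.7 and 73.6 with Rrp6, 206 and 274 with Csl4 and 349 and 310 with GFP dsRNA (−1.89 ± 0.24, adjusted p = 1.7e-05). borr, a subunit of the chromosomal passenger complex, stood at 9.66 and 2.68 with Rrp6 and 39.3 and 24.5 with Csl4 dsRNA (−2.15 ± 0.33, adjusted p = 1.8e-04). Calls of ncd and borr held without any 1 library. Incenp, the scaffold of that complex, was lower (−1.37 ± 0.23, adjusted p = 3.9e-04), with 0.0594 and 0.0654 without the deeper Rrp6 and the deeper Csl4 library. Only 3 replication and 3 mitosis genes were called without the deeper Rrp6 library, and without the deeper Csl4 library 6 and 6. In bulk RNA, fewer cells in division and less of these RNAs per cell cannot be told apart.

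Nuclear genes of the mitochondrion were lower too. Of 58 tested nuclear genes of oxidative phosphorylation 29 were lower and 0 higher, beside 5.34% lower of all genes, with a median of −0.69. UQCR-Q, of respiratory complex III, stood at 69.3 and 48.2 with Rrp6, 157 and 194 with Csl4 and 138 and 178 with GFP dsRNA (−1.47 ± 0.25, adjusted p = 3.9e-04), and kept the call without any 1 library. ATPsynF, of the ATP synthase, was lower (−1.19 ± 0.21, adjusted p = 6.8e-04, and 0.0512 without the deeper Rrp6 library). Of 68 mitochondrial ribosomal protein genes 23 were lower and 0 higher, and 66 of the 68 had a negative difference (median −0.72). mRpS14 stood at 23.6 and 40.2 with Rrp6, 65.1 and 176 with Csl4 and 79.9 and 206 with GFP dsRNA (−1.71 ± 0.25, adjusted p = 8.2e-05), a call that held without any 1 library. mRpL54 was lower (−1.80 ± 0.34, adjusted p = 0.00118, and 0.0588 without the deeper Rrp6 library). Cytosolic ribosomal protein genes moved less: 12 of 78 were lower and 0 higher, with a median of −0.36. RpS3 was lower (−0.66 ± 0.17, adjusted p = 0.0139), and had 0.0889, 0.0998 and 0.145 without the deeper Rrp6, the deeper Csl4 and the shallower Csl4 library. Counts of lower genes without the deeper Rrp6 library were 2 for oxidative phosphorylation, 2 for mitochondrial and 1 for cytosolic ribosomal proteins. Without the deeper Csl4 library they were 3, 6 and 0, and without the shallower Csl4 library 15, 21 and 1. DESeq2 gave 17, 14 and 6.

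**Figure D4:**
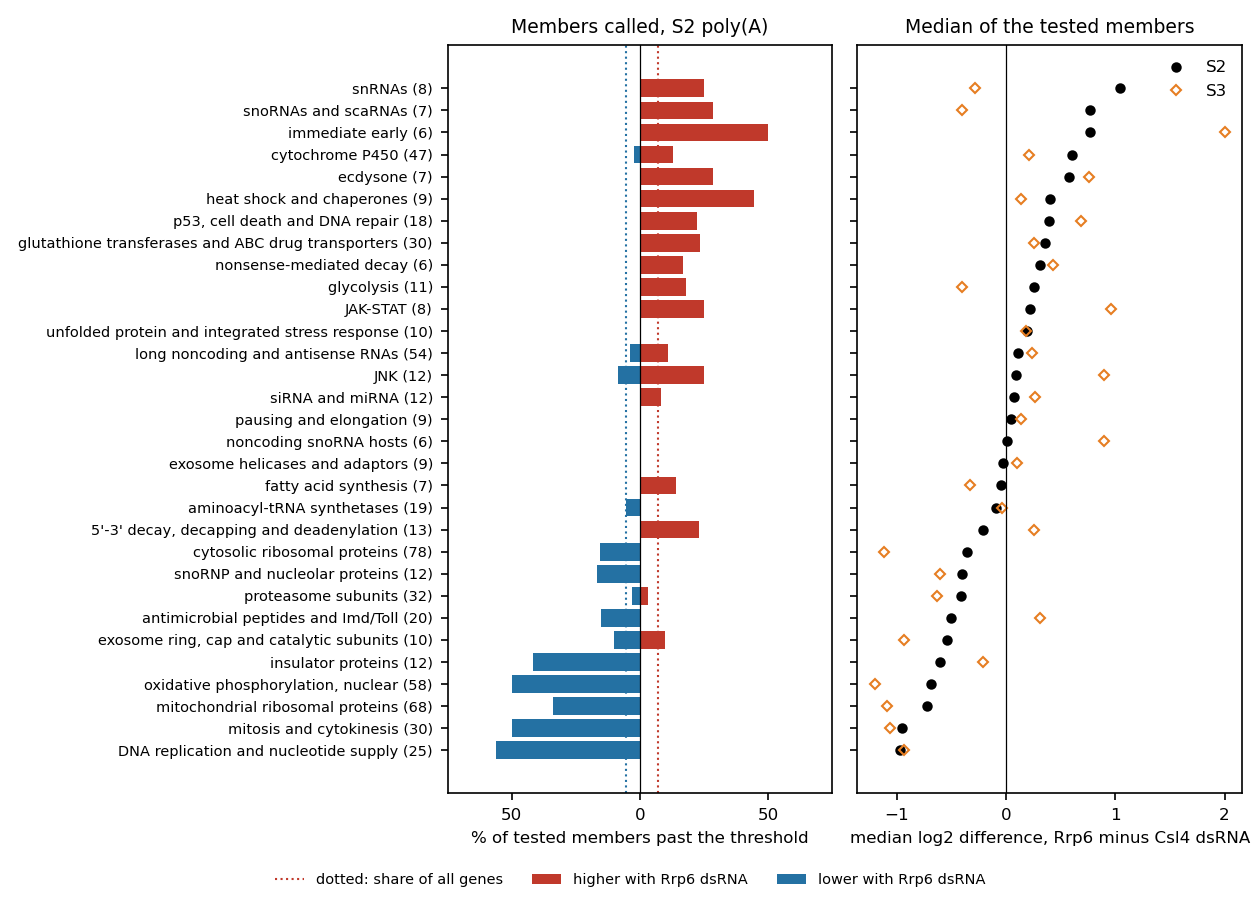
Gene lists with at least 6 tested members (number tested in brackets), ordered by their median difference in S2. The left panel gives the percentage of tested members higher (red, to the right) and lower (blue, to the left) with Rrp6 than with Csl4 dsRNA, with dotted lines at the share of all genes, 7.25% and 5.34%; the right panel gives the median log2 difference in S2 (filled) and in S3 (open). The lists of replication, mitosis, mitochondrial ribosomal proteins and oxidative phosphorylation lie at the bottom, with negative medians in both lines.

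The remaining genes of largest negative difference were of mixed function. CG33307 stood at 8.07 and 2.68 with Rrp6, 35.3 and 57.2 with Csl4 and 66.8 and 71 with GFP dsRNA (−2.51 ± 0.35, adjusted p = 5.6e-05), the largest negative difference of the 12. aos, the secreted inhibitor of the EGF receptor, stood at 16.6 and 26.8 with Rrp6, 61.9 and 94 with Csl4 and 80.5 and 105 with GFP dsRNA (−1.87 ± 0.26, adjusted p = 5.6e-05). The antibacterial peptide gene DptB stood at 22.8 and 8.03 with Rrp6, 57.1 and 161 with Csl4 and 49.2 and 24.5 with GFP dsRNA. The Csl4 libraries were the highest for DptB and differed from each other, and DptB was lower with Rrp6 by a log2 difference of −2.28 ± 0.42 (adjusted p = 9e-04). CG8910 followed the depth class, at 3.32 and 10.7 with Rrp6, 8.68 and 94 with Csl4 and 9.71 and 104 with GFP dsRNA (−2.08 ± 0.40, adjusted p = 0.00132). These 4 calls held without any 1 library. WRNexo, an exonuclease of the Werner syndrome family (−1.92 ± 0.30), the mitotic kinesin gene Klp67A (−1.83 ± 0.33), the homeobox gene btn (−1.80 ± 0.32) and Tina-1 (−1.77 ± 0.28) were lower with adjusted p of 2.2e-04 to 7.7e-04. Their adjusted p was 0.194, 0.229, 0.175 and 0.16 without the deeper Rrp6 library, and btn had 0.338 without the deeper Csl4 library.

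Of 20 tested genes of antimicrobial peptides and of the Imd and Toll pathways, 3 were lower and 0 higher, beside 5.34% and 7.25% of all genes: DptB, DptA (−1.40 ± 0.43, adjusted p = 0.0346) and Mtk (−2.60 ± 0.62, adjusted p = 0.00713). Mtk rested on few reads, at 2.37 and 1.34 with Rrp6 and 10.6 and 22.5 RPM with Csl4 dsRNA, and had an adjusted p of 0.282 without the deeper Rrp6 library. The list had 1 call without that library and 5 without the deeper Csl4 library. DptA had 0.61, 0.098 and 0.096 without the deeper Rrp6, the deeper Csl4 and the shallower Csl4 library. Of 12 tested insulator protein genes, whose products partition chromatin, 5 were lower and 0 higher, with a median of −0.60. Ibf2 stood at 22.5 and 22.8 with Rrp6, 61.9 and 69.5 with Csl4 and 90.9 and 79.2 with GFP dsRNA (−1.51 ± 0.26, adjusted p = 5.5e-04, and 0.0907 without the deeper Rrp6 library). BEAF-32 was lower (−0.84 ± 0.23, adjusted p = 0.0196, with 0.209, 0.227 and 0.0756 without the deeper Rrp6, the deeper Csl4 and the shallower Csl4 library). DESeq2 called 1 of the insulator genes, and the count was 0 without the deeper Rrp6 library, 2 without the shallower Rrp6 library and 1 without either Csl4 library.

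Some genes used as markers of neurons were higher. Of 10 neuron markers, 5 passed the filter on low counts and these were past the threshold (7.25% of all genes were higher). Syx1A had 0 reads in all 6 libraries. A gene can pass that filter through the Rrp6 libraries alone, so the share called among tested markers is partly built in. ChAT, at 8.71 and 29.4 RPM with Rrp6, 1.45 and 16.4 with Csl4 and 0.819 and 1.16 with GFP dsRNA, drew on the Rrp6 libraries to pass. Snap25, a synaptic vesicle fusion gene, was higher by 2.02 ± 0.29 (adjusted p = 7.9e-05) and brp, of the active zone, by 1.31 ± 0.24 (adjusted p = 8.9e-04). Without the deeper Rrp6 or the deeper Csl4 library only Snap25 of the 5 kept the call, brp having 0.113 and 0.112, and without the shallower Csl4 library cpx and elav lost it (0.0509 and 0.0689). The pan-neuronal gene elav stood at 30.1 and 26.8 RPM with Rrp6, 11.9 and 14.3 with Csl4 and 11.5 and 12.8 with GFP dsRNA (1.22 ± 0.35, adjusted p = 0.0247), and ChAT, of acetylcholine synthesis, was at 1.87 ± 0.59 (adjusted p = 0.0388). ChAT had 0.452 and 0.687 without the deeper Rrp6 and the deeper Csl4 library, and elav 0.38 and 0.439. Of the 5 untested markers, nSyb had 14 and 0 reads with Rrp6 and 9 and 0 with Csl4, and VGlut 7 and 0 with Rrp6 and 1 and 1 with Csl4 dsRNA. The summed level of the list was 288 and 491 RPM with Rrp6, 93.7 and 219 with Csl4 and 61.3 and 116 with GFP dsRNA, so the Rrp6 libraries were the highest in each depth class. Of the markers of muscle, germline, fat body and imaginal epithelium, 0 were past the threshold among 3, 5, 1 and 3 tested by edgeR, with 1 of each list at an unadjusted p under 0.05. A part of other cell types in these results was not tested.

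Levels under GFP dsRNA place these differences, with the caution that all comparisons share libraries. In the same fit 1592 genes were higher and 1405 lower with Rrp6 than with GFP dsRNA (19.2% and 16.9%), and 142 were higher and 12 lower with Csl4 than with GFP dsRNA (1.71% and 0.145%). Without the block the counts were 9 and 0 for Rrp6 and 0 and 0 for Csl4, with 156 genes at an unadjusted p under 0.05 for Csl4. Without the deeper Rrp6 library they were 776 and 400 for Rrp6, and without the deeper GFP library 920 and 689. Those for Csl4 were 66 and 10 without the deeper Csl4, 99 and 3 without the shallower Csl4, 255 and 70 without the shallower Rrp6, 109 and 6 without the deeper Rrp6, 145 and 31 without the deeper GFP and 104 and 22 without the shallower GFP library. Among the 12 top higher genes, 12 were past the threshold for Rrp6 against GFP and 5 for Csl4 against GFP. For the 12 top lower genes these numbers were 12 and 0. Cyp6d2 was at 5.66 ± 0.31 for Rrp6 against GFP and 2.91 ± 0.32 for Csl4 against GFP (adjusted p = 1.1e-11 and 5.7e-06). snRNA:U12 was at 5.20 ± 0.29 and 3.41 ± 0.29 (1.2e-11 and 1.8e-07). snoRNA:185, in contrast, was at 4.87 ± 0.40 and 0.28 ± 0.40 (5.8e-09 and 0.839), its Csl4 and GFP levels being close in the deeper libraries. Ts was at −2.71 ± 0.25 and −0.34 ± 0.22 (2.8e-08 and 0.588). Of the 601 higher genes, 76 were also called higher with Csl4 than with GFP dsRNA and 0 lower. The 443 lower genes held 4 that were called lower with Csl4 and 0 higher. By sign alone, 532 of the 601 were above GFP with Csl4 dsRNA, with a median of 0.54 against 1.85 with Rrp6. Of the 443, 358 were below GFP with Csl4 dsRNA, with a median of −0.28 against −1.21 with Rrp6. By sign most called genes leaned the same way with Csl4 dsRNA, and these signs were not tested. The genes were called for Rrp6 lying beyond Csl4 dsRNA, so the smaller Csl4 medians are built in. Over all genes tested the median for Csl4 against GFP was −0.02.

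The S3 libraries, which the S2 comparison did not use, gave the same direction for most of these genes. In S3 poly(A) RNA 535 genes were higher and 527 lower with Rrp6 than with Csl4 dsRNA, 6.82% and 6.72% of 7844 tested. Of the 601 genes higher in S2, 511 were tested in S3, 479 of them (93.7%) were positive there, and 216 were past the S3 threshold, 42.3% of the S2 list and 42.2% of the 512 S3 calls tested in S2. Of 7432 genes tested in both lines 49.1% were positive in S3 and 6.89% were past the threshold upwards. Of the 443 genes lower in S2, 428 were tested in S3, 403 (94.2%) were negative and 181 were called lower, 42.3% of the S2 list and 35.1% of the 516 S3 calls tested in S2, against 6.94% of all genes tested in both. Only 2 genes lower in S2 were called higher in S3, and 0 genes went the other way. The shares with the same sign ranged from 85.2 to 95.1% over 8 S3 fits for the higher and from 90.0 to 94.7% for the lower genes. The S3 calls themselves rested on single libraries, falling to 13 higher and 0 lower without the deeper Rrp6, 0 and 1 without the deeper Csl4 and 4 and 2 without the shallower Csl4 library, and to 2 and 0 without the block (1500 genes at an unadjusted p under 0.05). Without the shallower Rrp6 library they were 771 and 1390.

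Mdr49 was higher in S3 by 4.38 ± 0.41 (adjusted p = 0.00822), CG8620 by 4.95 ± 0.69 (0.0119), Arc1 by 3.25 ± 0.42 (0.0119) and Cyp6d2 by 1.76 ± 0.28 (0.0141). Ts was lower by a log2 difference of −2.72 ± 0.29 (0.00822) and ncd of −2.09 ± 0.29 (0.0119). snoRNA:185 was higher there by 2.37 ± 0.51 (0.0246), but snoRNA:U3:9B gave 0.64 ± 0.86 (0.642). Tested snoRNA and scaRNA genes had a median of −0.40 in S3 against 0.77 in S2, and snRNA genes −0.28 against 1.04. Of the 12 top higher genes 10 were tested in S3, where 10 were positive and 7 past the threshold. Of the 12 top lower genes 10 were tested, 8 were negative and 7 past the threshold. CG3397 gave 0.68 ± 0.40 (0.267) and btn 0.07 ± 0.28 (0.885). U11 and U12 gave 0.53 ± 0.30 and −0.15 ± 0.37 in S3 (adjusted p = 0.246 and 0.813), and their differences between the lines, 1.24 ± 0.42 and 1.93 ± 0.52, did not pass the interaction test (adjusted p = 0.379 and 0.225). aos was negative in S2 and at 0.98 in S3, a difference between the lines of −2.90 ± 0.50 (adjusted p = 0.0622). By list, 55 of 77 cytosolic ribosomal protein genes were lower in S3 with a median of −1.12, 38 of 59 of oxidative phosphorylation (−1.20), 33 of 68 mitochondrial ribosomal proteins (−1.09), 13 of 30 mitosis genes (−1.06) and 8 of 25 replication genes (−0.93). Of all genes tested in S3, 6.72% were lower. These list counts are part of the S3 calls and share their dependence on single libraries and on the block. Over all genes the S3 median was 0.00. The interaction test called 4 of 8788 genes (0.0455%), with 766 at an unadjusted p under 0.05 and 68 called by DESeq2. Without the block it called 0.

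**Figure D5:**
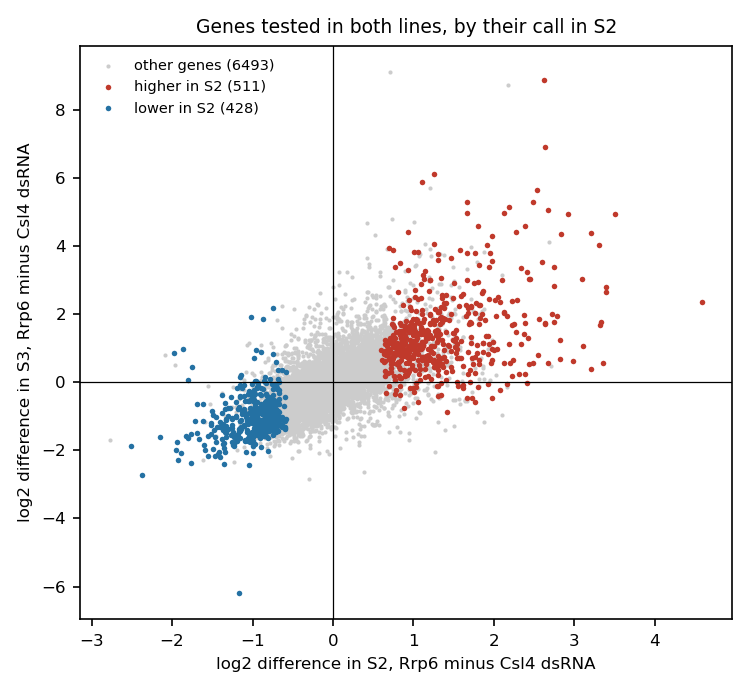
Log2 difference between Rrp6 and Csl4 dsRNA in S2 (horizontal axis) and in S3 (vertical axis) for each gene tested in both lines, coloured by its call in S2. Of the red points (511, higher in S2) 479 lie above 0 in S3, and of the blue points (428, lower in S2) 403 lie below 0; the lowest point is Csl4 itself, at −6.19 in S3.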

How the data were processed

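The deposited tables hold, per the file headers, signal columns that are the authors' group means of read counts divided by DESeq size factors, for GFP and knockdown libraries. The submitters' processing notes name, in no stated order, DESeq 1.9.11, HTSeq 0.5.3p9, TopHat 1.4.1, cutadapt 1.0, CASAVA 1.8 and the build dm3. Whole reads per library were worked back from each mean, which gave at least 99.99% of 15070 values per group and 0 genes unrecovered. The decoding and the fit were tested on simulated data. In the simulated S2 comparison of 8294 genes, the fit called 31 of 67 genes changed 2-fold (46.3%). It called 61 of 67 changed 4-fold and 64 of 66 changed 8-fold, with 9 false calls. Rows that name no gene (80.3 to 84.9% of the mean total in the 3 S2 groups) were left out.

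edgeR 4.0.16 (R 4.3.3; quasi-likelihood, TMM, filterByExpr, Benjamini-Hochberg) was fitted to Rrp6, Csl4 and GFP libraries of a line together, leaving 2 residual degrees of freedom in S2 and 3 in S3, with depth class as a block. Which recovered Rrp6 or Csl4 library is replicate 1 or 3 is not given, so depth class stands for the replicate number. It does not for the third GFP library of S3, labelled replicate 2, with 2 technical replicates merged. That library was put in the deeper class with libraries of other replicates. It held 69426568 reads, and the next deepest S3 library 5776164. Libraries of the same class deviated together (r from 0.61 to 0.65 over 8294 genes in the 3 pairs of groups, and 0.80 to 0.84 over 5325 genes with at least 10 reads in each library). GFP libraries of the 2 tables were identical in all 15065 genes and counted once.

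The members, the block, the 35 lists and the naming rule were chosen with earlier results of these data known. List members were matched by name, and 980 of 15065 gene IDs had no symbol. Several lists are therefore incomplete. Replication lacks Mcm3, Orc1, PolE1, PolD1 and RPA2, the chaperones lack Hsc70-4, DnaJ-1 and Hop, and the antimicrobial list lacks Drs. The naming rule takes Rrp6, Csl4 and Rrp40, then the 12 largest differences in each direction among other called genes that have a symbol. These needed at least 20 reads in both libraries of the higher group and the same direction in both depth pairs. Of the 601 higher genes 540 had a symbol, and of the 443 lower genes 423. The rule adds up to 3 called members per list and direction. Alternatives were no block, other libraries, RLE scaling, other filters, DESeq2 1.42.0 and leaving out each library.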

Additional observations from a re-analysis of the deposited data

Results flagged for a closer look

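The Rrp6 minus Csl4 difference itself differed between the lines for 4 genes by edgeR's interaction test, each larger in S3. Without 1 library this count ranged from 0 (the deeper Rrp6 or the deeper Csl4 library of S2) to 198 (the shallower Rrp6 library of S3). For CG15347 the S2 minus S3 value was −4.78 ± 0.58 (adjusted p = 0.007), from 1.11 in S2 and 5.90 in S3. For CG14196 it was −4.89 ± 0.68 (adjusted p = 0.0133), from 1.26 and 6.11. For sano it was −4.36 ± 0.55 (adjusted p = 0.007), from 0.42 and 4.68. For pyr, a fibroblast growth factor gene, it was −4.10 ± 0.66 (adjusted p = 0.0471), from 0.73 and 4.80. In the S3 Csl4 libraries these 4 genes stood at 0.821 to 2.46 RPM (reads per 1000000 on genes).

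Reads that aligned to more than 1 place lie outside the gene comparison. In the authors' deposited means they were 1.86-fold the GFP level with Rrp6 dsRNA and 1.18-fold with Csl4 dsRNA, or 29.5% and 15.6% of the mean total against 16.9% with GFP dsRNA. Reads assigned to no feature, the largest part of the total, were 0.893-fold the GFP level with Rrp6 and 1.4-fold with Csl4 dsRNA. Their shares were 52.7% and 68.9% against 63% with GFP dsRNA. Only the means of 2 libraries were used for these reads, without values per library, and no test was made.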

How the results depend on the processing

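The block for depth class decides the calls: without it (no paired term) the S2 counts were 0 higher and 0 lower, the S3 counts 2 and 0 and the interaction count 0, and against GFP dsRNA 9 and 0 for Rrp6 and 0 and 0 for Csl4. DESeq2 gave 379 and 229 in S2, 815 higher in S3, 68 interaction genes and 823 lower with Rrp6 than with GFP dsRNA. Requiring 10 reads in every Rrp6 and Csl4 library left 254 lower. RLE scaling gave 218 higher and 31 lower for Csl4 against GFP. Leaving out 1 library moved the S2 counts from 134 to 822 higher and from 46 to 623 lower, the S3 counts from 0 to 771 and from 0 to 1390, the interaction count from 0 to 198, the counts for Rrp6 against GFP from 776 to 1570 and from 400 to 1533, and those for Csl4 against GFP from 66 to 255 and from 3 to 70. The difference of Csl4 itself ranged from −1.94 to 0.60, reversed without the deeper Csl4 library. The alternatives for the GFP comparisons were chosen after seeing the data. Other alternatives kept the S2 counts within 1.5-fold. Of the 86 named genes, 85 or 86 kept direction and side of the threshold with RLE scaling, with the Rrp40 library added and in the 4 libraries alone, 68 with DESeq2 and 31 without the deeper Rrp6 library. The shallower libraries, with 532934 to 939776 reads, limit genes of low level.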
